A study of Mus musculus with 6 samples.

Results

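The 10 genes described here encode the NF-kB transcription factor subunits and the proteins that hold NF-kB in check, in mouse bone marrow-derived macrophages. They were chosen by gene name: the subunit genes Nfkb1, Nfkb2, Rel, Rela and Relb, the inhibitor genes Nfkbia, Nfkbib and Nfkbie, the nuclear IkB gene Nfkbiz, and Tnfaip3. All 10 were among the 55401 genes listed and among the 16256 genes with enough counts to be tested. RNA was sequenced in 6 libraries, 3 labelled Mettl3-/- (labelled KO below) and 3 labelled wild type (WT). The macrophages, from bone marrow of C57BL/6 mice, were grown for 7 days in 40 ng/mL M-CSF, the cytokine that drives macrophage growth, in medium with 10% serum. The labels mention a treatment after that without naming it. METTL3 is the methyltransferase that places N6-methyladenosine (m6A) on adenosines of messenger RNA. The labels give no age or sex, do not say how or in which cells Mettl3 was deleted, and do not tie the replicates to separate mice or cultures. The p-values therefore cover only library-to-library spread, which may be technical.

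NF-kB proteins are dimers built from subunits that share a Rel homology domain for DNA binding. In resting cells, classical IkB proteins mask the dimers in the cytoplasm. Signals from Toll-like receptors, interleukin 1 or TNF receptors activate the IkB kinase complex, IkB is phosphorylated and degraded, and the freed dimers enter the nucleus and induce inflammatory genes. Some of those genes, such as Nfkbia and Tnfaip3, encode inhibitors that close a feedback loop, and macrophages are among the cells in which this loop is best known.

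Promoter sequences were available for 7 of the 10 genes in the RefSeq table (build GRCm38.p6), as windows from 250 bases before to 50 bases after an annotated transcript start. A window is shown for each of 3 genes because their promoters are textbook places of NF-kB feedback and hold letters that match a kB site, and for Tnfaip3 because its level is discussed at length below. Capitals mark matches to GGGANNNNCC, searched on both strands and shown as they lie on the gene's own strand. The pattern requires GGGA, so kB-like letters without it were neither marked nor counted. Examples left in lower case are ggaatttcc and ggaaatcccc in the Tnfaip3 window and ggactttcc in the Nfkbia window. The capitals are therefore not a full list of kB-like letters.
Nfkb2 (chr19:46304487-46304786, plus strand): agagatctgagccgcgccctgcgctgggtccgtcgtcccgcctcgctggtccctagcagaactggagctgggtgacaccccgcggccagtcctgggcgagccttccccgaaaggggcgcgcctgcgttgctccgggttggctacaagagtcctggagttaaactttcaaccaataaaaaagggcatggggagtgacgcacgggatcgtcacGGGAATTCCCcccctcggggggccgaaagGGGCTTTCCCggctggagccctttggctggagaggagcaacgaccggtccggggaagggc
Rel (chr11:23770920-23771219, minus strand): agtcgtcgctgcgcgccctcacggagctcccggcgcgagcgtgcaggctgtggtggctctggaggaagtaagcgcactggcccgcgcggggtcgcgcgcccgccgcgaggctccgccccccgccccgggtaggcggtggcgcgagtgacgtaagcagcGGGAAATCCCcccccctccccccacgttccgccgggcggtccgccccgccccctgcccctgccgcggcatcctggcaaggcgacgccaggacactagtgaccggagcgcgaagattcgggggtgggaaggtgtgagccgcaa
Nfkbia (chr12:55492598-55492897, minus strand): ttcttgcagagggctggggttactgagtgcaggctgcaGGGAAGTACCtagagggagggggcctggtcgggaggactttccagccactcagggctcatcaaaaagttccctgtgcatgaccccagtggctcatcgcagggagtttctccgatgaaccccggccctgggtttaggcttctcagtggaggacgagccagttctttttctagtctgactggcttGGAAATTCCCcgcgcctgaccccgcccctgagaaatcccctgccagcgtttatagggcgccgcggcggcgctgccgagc
Tnfaip3 (chr10:19015361-19015660, minus strand): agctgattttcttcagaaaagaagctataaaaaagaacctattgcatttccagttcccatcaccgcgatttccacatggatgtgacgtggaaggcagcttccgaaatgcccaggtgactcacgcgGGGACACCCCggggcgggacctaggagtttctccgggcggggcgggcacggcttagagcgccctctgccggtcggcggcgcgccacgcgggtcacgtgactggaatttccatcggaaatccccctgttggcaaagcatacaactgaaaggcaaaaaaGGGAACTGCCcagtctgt

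A match to GGGANNNNCC stood in a window of 5 of the 7 genes, Nfkb2, Rel, Rela, Nfkbia and Tnfaip3, and in 8 of the 10 windows of the 7 genes, some of which overlap. Of all 32851 windows of this length 20.7% held one. The narrower GGGANTTTCC, a special case of that motif, was found for Nfkbia and, in the table's other windows of the gene, for Nfkb2, in 3 of the 10 windows and in 0.411% of all windows. Those other Nfkb2 windows overlap and hold the same GGGACTTTCC, so that site is counted in each of them. In the Nfkbia window the match to GGGANTTTCC begins 29 bases before the start. Matches that hold on both strands begin 39 bases before the start in the Nfkb2 window and 92 bases before it in the Rel window. These are letters in a window and not measured binding.

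Libraries held 68145877 to 77997742 estimated counts in labelled KO and 67280390 to 68658821 in WT. Across the 16256 tested genes, 2060 (12.7%) were called at an adjusted p under 0.05 (edgeR's quasi-likelihood test, Benjamini-Hochberg adjusted over all of them), and 1244 to 1339 with any 1 library left out. Mettl3 itself did not follow the labels, at 2.504, 2.56 and 2.93 FPKM in labelled KO and 2.62, 2.91 and 2.26 FPKM in WT (log2 fold change 0.02, edgeR adjusted p = 0.930). Of its exonic bases, 18.4% overlap Tox4, an antisense neighbour that averaged 18.8 FPKM in labelled KO and 17.7 FPKM in WT. Without a stated strand setting, reads over the shared bases cannot be told apart. FPKM relates the fragments of a gene to its transcript length and to the size of the library. The macrophage markers Csf1r, Adgre1, Cd68, Itgam, Mertk and Fcgr1 averaged 97.3 to 757 FPKM in labelled KO and 77.2 to 780 FPKM in WT, 3 called higher and 1 lower. Of 11 monocyte and progenitor markers, 7 were called higher and 0 lower in labelled KO. Ccr2, Cd34, Kit and Elane were not called. The summed level over the 11 was 557 to 570 FPKM in labelled KO and 351 to 358 FPKM in WT. Of that sum Hp alone averaged 306 FPKM in labelled KO and 165 FPKM in WT. Of 7 tested neutrophil markers 1 was called higher and 1 lower (before adjustment, 1 and 3 had a p under 0.05), with a median log2 fold change of -0.30. The summed level over 9 neutrophil markers was 126 to 136 FPKM in labelled KO and 113 to 117 FPKM in WT, of which Mmp8 alone averaged 76.7 FPKM in labelled KO and 52.3 FPKM in WT. Of 9 T and NK cell markers 0 were called by edgeR, 2 of them higher at an unadjusted p under 0.05 (15.3 to 15.9 FPKM in labelled KO and 12.4 to 14.6 FPKM in WT). Of 6 dendritic cell, 5 B cell and 5 erythroid markers 3, 4 and 0 had enough counts to be tested and none was called, each list summing to at most 2.15 FPKM in any library, and Siglech, Hba-a1 and Hbb-bs were listed at a count of 0 in all 6 libraries. The 6 stromal markers summed to 1.80 to 2.02 FPKM in labelled KO and 1.70 to 2.17 FPKM in WT, with 1 called higher. The part of these other cells in the results below was not tested, and in such bulk samples fewer cells of a type and less RNA per cell cannot be told apart.

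Of the 10 genes, 2 were called higher in labelled KO and 0 lower: Nfkb1 and Nfkbiz. That is 20% of the 10, read against 12.7% of all tested genes (7.01% higher and 5.67% lower), with a median log2 fold change of 0.07 over the 10 genes and -0.0049 over all tested genes. FPKM values did not overlap between the groups for 7 genes, 6 higher and 1 lower in labelled KO, and at an unadjusted edgeR p under 0.05 4 were higher and 1 lower, beside 26.5% of all tested genes at that level. For comparison, 33.8% of all tested genes did not overlap, 19.1% higher and 14.6% lower. These counts use FPKM as deposited, without the library scaling of the edgeR fold changes. The median log2 fold change over all tested genes was 0.0129 on log2(FPKM + 0.1) and -0.0049 in edgeR. All differences were modest, the largest called one being 0.30 on the log2 scale. DESeq2, an alternative test, called 4 of the 10 higher, the same 2 with Rela and Tnfaip3. Of the 13439 genes to which DESeq2 gave an adjusted p, 20.0% were called.

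**Figure D1:**
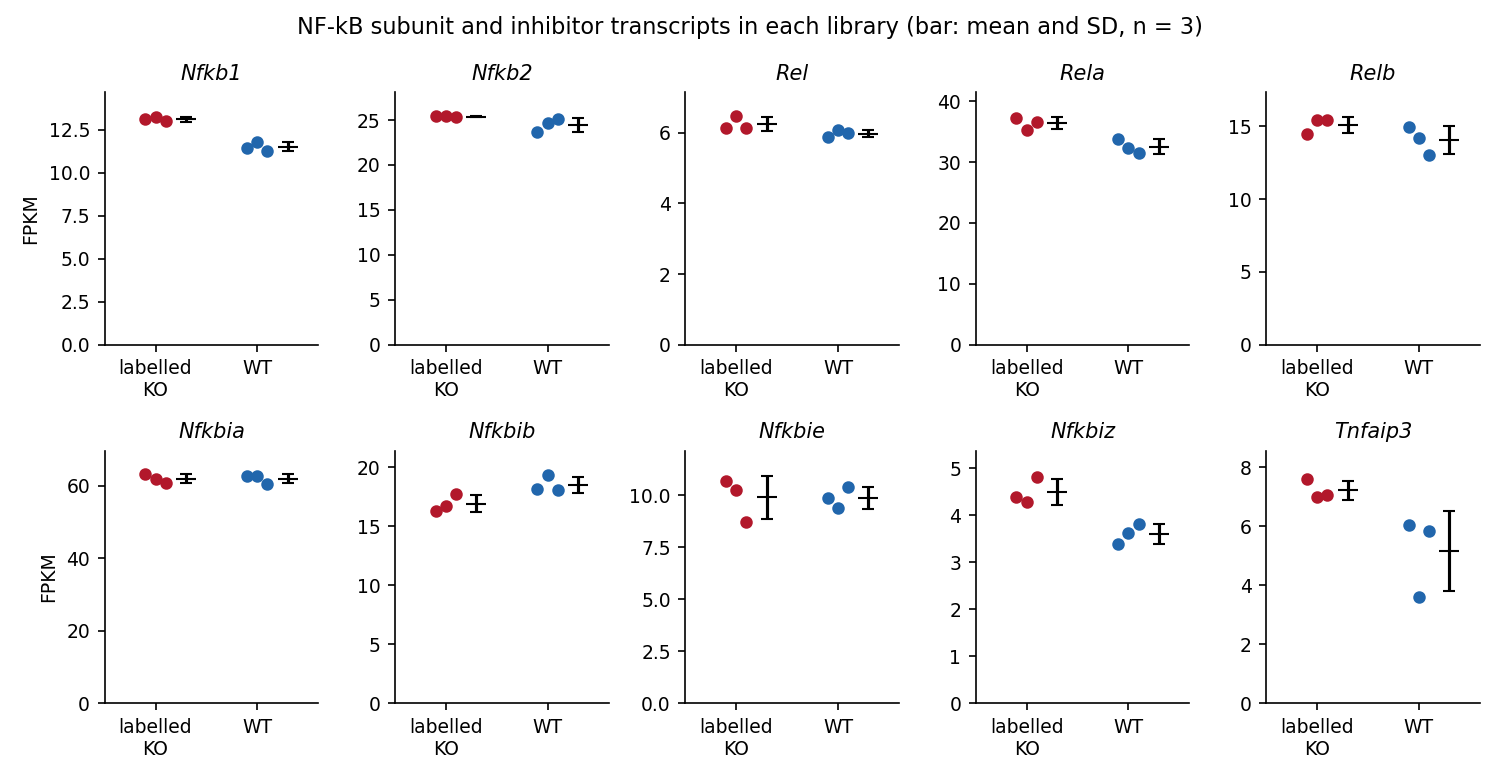
FPKM of each gene (vertical axes, from 0) in the 3 libraries labelled KO and the 3 WT libraries, with mean and SD beside the points. Nfkb1 read 12.999 to 13.27 FPKM in labelled KO, above all WT libraries, Nfkbia was level at about 62 FPKM (61.956 and 61.963), and 1 WT library stands low for Tnfaip3 at 3.59 FPKM.

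The subunit genes differ in what they encode. Rela encodes p65, Rel encodes c-Rel and Relb encodes RelB, which carry transactivation domains. Nfkb1 and Nfkb2 encode the precursors p105 and p100, which are processed to the DNA-binding subunits p50 and p52 and whose uncut forms act as IkB-like inhibitors.

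Nfkb1 (ENSMUSG00000028163, chromosome 3, 135584655 to 135691546, minus strand, mm10 as deposited) was higher in labelled KO. It read 13.11, 13.27 and 12.999 FPKM in labelled KO and 11.5, 11.8 and 11.3 FPKM in WT, from 12299 to 13757 estimated counts in labelled KO and 10469 to 10923 in WT. Every library labelled KO stood above every WT library. The log2 fold change was 0.17 (SE 0.028, edgeR adjusted p = 0.0118), a ratio of 1.13 with 95% limits of 1.07 and 1.18. The exact permutation p, two-sided, was 0.1, the floor of a comparison of 3 with 3 libraries. The call held under all 14 alternatives, with log2 fold changes of 0.16 to 0.19 and adjusted p from 0.00029 to 0.0452.

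Rela (ENSMUSG00000024927, chromosome 19, 5637483 to 5648130, plus strand) was the most abundant subunit transcript. It read 37.3, 35.3 and 36.6 FPKM in labelled KO and 33.8, 32.4 and 31.5 FPKM in WT, and the groups did not overlap. Its log2 fold change was 0.14 (SE 0.039, 95% limits 0.051 and 0.239), which did not pass (edgeR adjusted p = 0.0625). It passed under 4 of 14 alternatives: DESeq2 (adjusted p = 0.0297), edgeR on library totals alone (0.0447) and limma on log2(FPKM + 0.1) and log2(FPKM + 1) (0.0453 and 0.0447). With any 1 library left out the adjusted p was 0.0637 to 0.179, with the same direction.

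Nfkb2 (ENSMUSG00000025225, chromosome 19, 46304320 to 46312385, plus strand) read 25.5, 25.4 and 25.3 FPKM in labelled KO and 23.6, 24.7 and 25.1 FPKM in WT. The groups did not overlap, but the nearest libraries differed little, and the log2 fold change of 0.04 did not pass (SE 0.032, edgeR adjusted p = 0.542, 95% limits -0.041 and 0.114). In GENCODE M21, Nfkb2 shares 11.6% of its exonic bases with AC114539.1 and 6.52% with Psd, both on the opposite strand. AC114539.1 averaged 12.04 FPKM in labelled KO and 10.4 FPKM in WT. Without a stated strand setting those reads cannot be told apart.

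Relb (ENSMUSG00000002983, chromosome 7, 19606217 to 19629438, minus strand) was present at 14.5, 15.4 and 15.4 FPKM in labelled KO and 14.96, 14.2 and 13.1 FPKM in WT. The groups overlapped, and its log2 fold change of 0.09 did not pass (SE 0.060, edgeR adjusted p = 0.427, 95% limits -0.057 and 0.23). Rel (ENSMUSG00000020275, chromosome 11, 23736847 to 23770970, minus strand) was the lowest of the subunit transcripts, at 6.13, 6.48 and 6.14 FPKM in labelled KO and 5.87, 6.08 and 5.99 FPKM in WT. Its groups did not overlap, and its log2 fold change of 0.05 did not pass (SE 0.041, edgeR adjusted p = 0.535, 95% limits -0.051 and 0.145). For both genes the limits leave room for a rise of up to 1.17-fold (Relb) or 1.11-fold (Rel).

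The classical inhibitors Nfkbia, Nfkbib and Nfkbie encode IkB alpha, IkB beta and IkB epsilon, ankyrin repeat proteins that bind NF-kB dimers. Nfkbia (ENSMUSG00000021025, chromosome 12, 55489410 to 55492647, minus strand), the rapidly resynthesised feedback inhibitor, was the most abundant of the 10 transcripts. It read 63.1, 62.0 and 60.8 FPKM in labelled KO and 62.7, 62.7 and 60.5 FPKM in WT. The groups overlapped throughout. The log2 fold change was -0.02 (SE 0.032, edgeR adjusted p = 0.796), and its 95% limits of 0.938 and 1.04 as a ratio bound the difference closely.

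Nfkbib (ENSMUSG00000030595, chromosome 7, 28758251 to 28766640, minus strand) was the one gene of the 10 with lower values in labelled KO in every library. It read 16.3, 16.7 and 17.7 FPKM in labelled KO and 18.1, 19.3 and 18.1 FPKM in WT. The log2 fold change of -0.15 did not pass (SE 0.052, edgeR adjusted p = 0.132, 95% limits -0.27 and -0.021 before adjustment), nor under any of the 14 alternatives (adjusted p from 0.118 to 0.315). Nfkbib shares 14.5% of its exonic bases in GENCODE M21 with Ccer2 and 1.94% with Sirt2, both on the opposite strand. Nfkbie (ENSMUSG00000023947, chromosome 17, 45555703 to 45563169, plus strand) was present at 10.7, 10.3 and 8.72 FPKM in labelled KO and 9.85, 9.36 and 10.4 FPKM in WT. Its groups overlapped, with -0.01 ± 0.087 (SE) on the log2 scale (edgeR adjusted p = 0.944), the sign of which turned without labelled KO replicate 3 (0.07), without WT replicate 3 (0.03) and on library totals alone (0.0033).

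Nfkbiz encodes IkB zeta, an inducible nuclear IkB protein that works with p50 and is needed for a set of secondary response genes such as Il6 in macrophages. Nfkbiz (ENSMUSG00000035356, chromosome 16, 55811375 to 55838899, minus strand) had the lowest mean FPKM of the 10 in both groups and was higher in labelled KO. It read 4.40, 4.28 and 4.82 FPKM in labelled KO and 3.38, 3.63 and 3.82 FPKM in WT, and the groups did not overlap. The log2 fold change was 0.30 (SE 0.074, edgeR adjusted p = 0.0470), a ratio of 1.23 with 95% limits of 1.09 and 1.39. The call lies close to the threshold: it was lost with any 1 of the 6 libraries left out (log2 fold changes 0.24 to 0.34, edgeR adjusted p from 0.0695 to 0.129) and held under 3 of 14 alternatives, always in the same direction. Il6 was at a count of 0 in all libraries except WT replicate 1, which had 8.

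Tnfaip3 encodes A20, a ubiquitin-editing enzyme that switches off signalling upstream of the IkB kinases. Tnfaip3 (ENSMUSG00000019850, chromosome 10, 19000910 to 19015410, minus strand) had the largest fold change of the 10 with all libraries kept, and the widest spread in WT. It read 7.59, 7.00 and 7.07 FPKM in labelled KO and 6.05, 3.59 and 5.84 FPKM in WT. The groups did not overlap, but WT replicate 2, at 1986 estimated counts against 3313 and 3245 in WT replicates 1 and 3, stood well below the others. The coefficient of variation was 4.40% in labelled KO and 26.5% in WT, and 93.6% of genes with a mean of at least 2 FPKM varied less than or as much as this in WT. The log2 fold change of 0.47 did not pass (edgeR adjusted p = 0.178, with an SE of 0.19), and without WT replicate 2 it was 0.27 (edgeR adjusted p = 0.0522), below the 0.31 of Nfkbiz in that fit. DESeq2 called it (adjusted p = 0.0347), the only one of 14 alternatives that did.

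**Figure D2:**
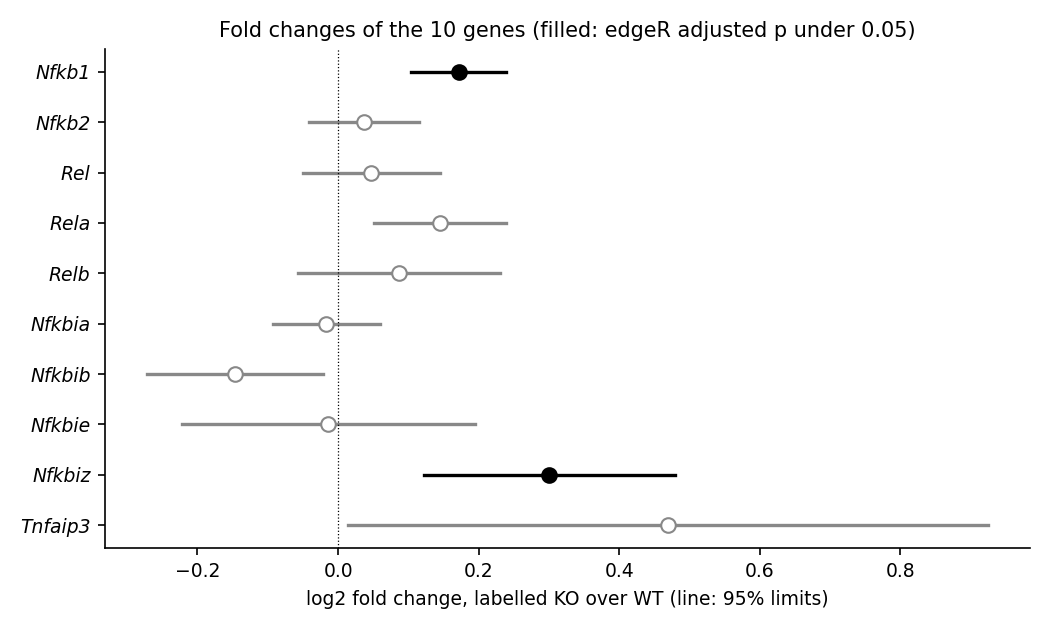
Log2 fold change of each gene, labelled KO over WT (horizontal axis), with unadjusted 95% limits from the edgeR fit. Nfkb1 (0.17) and Nfkbiz (0.30) passed at an adjusted p under 0.05, and Tnfaip3 has the widest limits, from 0.013 to 0.924.

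The order of the levels was nearly the same in both groups. From high to low it ran Nfkbia, Rela, Nfkb2, Nfkbib, Relb, Nfkb1 and Nfkbie in labelled KO and in WT, with no overlap between neighbours in either group. Below them stood Tnfaip3, Rel and Nfkbiz in labelled KO, again apart. In WT, Rel came before Tnfaip3, whose range of 3.59 to 6.05 FPKM overlapped those of both Rel and Nfkbiz, so these places are not settled there. Nfkbia lay above 95.7% of tested genes by mean FPKM and Nfkbiz above 57.1%, counting each gene itself.

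Summed over genes, subunit FPKM was higher in labelled KO and inhibitor FPKM overlapped between the groups, a comparison given without a test. The 5 subunit genes summed to 96.5, 95.9 and 96.5 FPKM in labelled KO and 89.7, 89.1 and 86.9 FPKM in WT. Nfkbia, Nfkbib and Nfkbie together gave 90.1, 89.0 and 87.2 FPKM in labelled KO and 90.7, 91.3 and 89.0 FPKM in WT. The subunit sums did not overlap between groups and the inhibitor sums did. The ratio of inhibitor to subunit FPKM was 0.934, 0.928 and 0.904 in labelled KO and 1.01, 1.02 and 1.02 in WT, a description of transcripts per length and not of proteins. This ratio depends on how the genes were split. Nfkbiz and Tnfaip3 stand in neither sum, and averaged 4.50 and 7.22 FPKM in labelled KO and 3.61 and 5.16 FPKM in WT. Nfkb1 and Nfkb2 count as subunits here, although their uncut proteins act as IkB-like inhibitors. Within the subunits, Nfkb2 gave 26.4% ± 0.152 of the sum in labelled KO and 27.6% ± 1.27 in WT, Rela 37.8% ± 0.954 in labelled KO and 36.7% ± 0.806 in WT, Nfkb1 13.6% ± 0.188 in labelled KO and 13.007% ± 0.247 in WT, and Rel 6.49% ± 0.228 in labelled KO and 6.75% ± 0.182 in WT (SD, n = 3 each). The Nfkb1 share did not overlap between the groups, and those of Nfkb2, Rela and Rel did. The ratio of Nfkbia to Rela FPKM was 1.703 ± 0.0496 in labelled KO and 1.905 ± 0.0422 in WT (SD, n = 3 each).

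**Figure D3:**
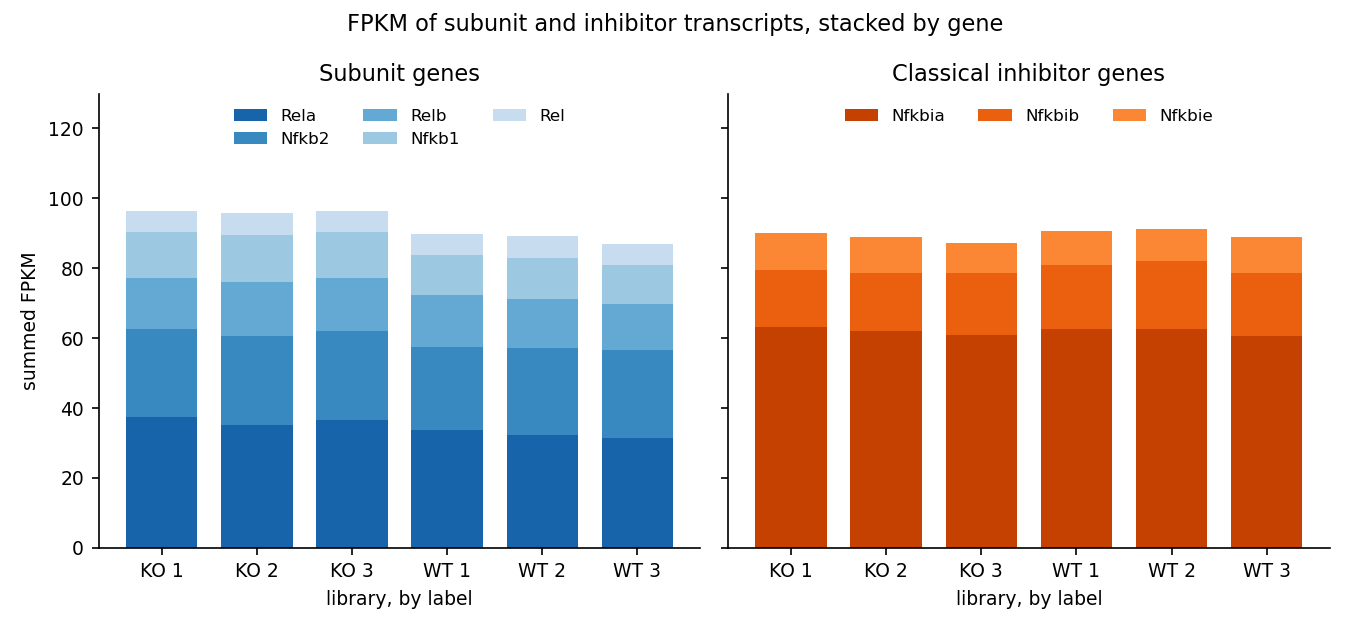
FPKM of the 5 subunit genes (left) and of Nfkbia, Nfkbib and Nfkbie (right), stacked by gene for each library. Subunit sums were 95.9 to 96.5 in labelled KO and 86.9 to 89.7 in WT, while inhibitor sums overlapped, at 87.2 to 90.1 in labelled KO and 89.0 to 91.3 in WT.

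Genes upstream and downstream of the 10 differed in how many were called. Of 24 kinases, adaptors and ubiquitin ligases that lead to NF-kB, 1 was called higher and 0 lower in labelled KO, 4.17% of the list where 12.7% of all tested genes were called, with a median log2 fold change of 0.04. At an unadjusted p under 0.05 4 were higher and 2 lower, beside 26.5% of all tested genes. DESeq2 called 1 higher and 1 lower, beside 20.0% of the genes to which it gave an adjusted p. The edgeR-called gene was Traf6, the ubiquitin ligase downstream of Toll-like and interleukin 1 receptors, at 5.94, 5.85 and 5.83 FPKM in labelled KO and 5.12, 4.99 and 4.82 FPKM in WT. Its groups did not overlap (0.22 ± 0.039, SE, on the log2 scale; edgeR adjusted p = 0.0152). Leaving out labelled KO replicate 1, 2 or 3 ended that call (edgeR adjusted p = 0.0638, 0.0550 and 0.0570), as did leaving out WT replicate 2 (0.0577).

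Of 20 other IkB proteins and negative regulators, 1 was called higher and 0 lower (5% of the list, beside 12.7% of all tested genes; median log2 fold change 0.03). At an unadjusted p under 0.05 and in DESeq2 the counts were each 3 higher and 0 lower. Beside these stand 26.5% of all tested genes and 20.0% of the genes to which DESeq2 gave an adjusted p. The gene called by edgeR was Zc3h12a, which encodes Regnase-1, a ribonuclease that degrades inflammatory messenger RNAs, Nfkbiz among them. Zc3h12a read 15.6, 14.2 and 14.98 FPKM in labelled KO and 13.04, 12.9 and 12.9 FPKM in WT, with no overlap (0.19 ± 0.047, SE, on the log2 scale; edgeR adjusted p = 0.0457). The call was lost with any 1 library left out other than labelled KO replicate 2 (edgeR adjusted p from 0.113 to 0.135), and it was kept without that library at 0.0458.

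Of 42 NF-kB target genes 40 were tested, Il6 and Csf3 having too few counts, and 19 were called, 12 higher and 7 lower in labelled KO. That is 47.5% of the tested targets, beside 12.7% of all tested genes, and the median log2 fold change was 0.13 beside -0.0049 over all tested genes. The target list, like the other lists, was chosen with earlier results of these data known. Its share is therefore a description and was not tested. Saa3, an acute phase protein gene, averaged 3319 ± 39.2 FPKM in labelled KO and 2655 ± 10.7 FPKM in WT (SD, n = 3 each; log2 fold change 0.31, edgeR adjusted p = 2.5e-05). Tlr2, the receptor for bacterial lipoproteins, averaged 132 ± 1.08 FPKM in labelled KO and 99.1 ± 1.46 FPKM in WT (log2 fold change 0.40, edgeR adjusted p = 0.00013). The chemokine gene Cxcl10 averaged 38.5 ± 1.31 FPKM in labelled KO and 24.0 ± 0.082 FPKM in WT (log2 fold change 0.67, edgeR adjusted p = 0.000185). Cd83, a surface protein gene of activated antigen-presenting cells, was lower, at 3.48 ± 0.206 FPKM in labelled KO and 7.81 ± 0.547 FPKM in WT (log2 fold change -1.18, edgeR adjusted p = 0.000395). Many of these genes also answer to interferon, and the monocyte markers that were higher in the same libraries are given above. The part of either in the target values was not tested.

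**Figure D4:**
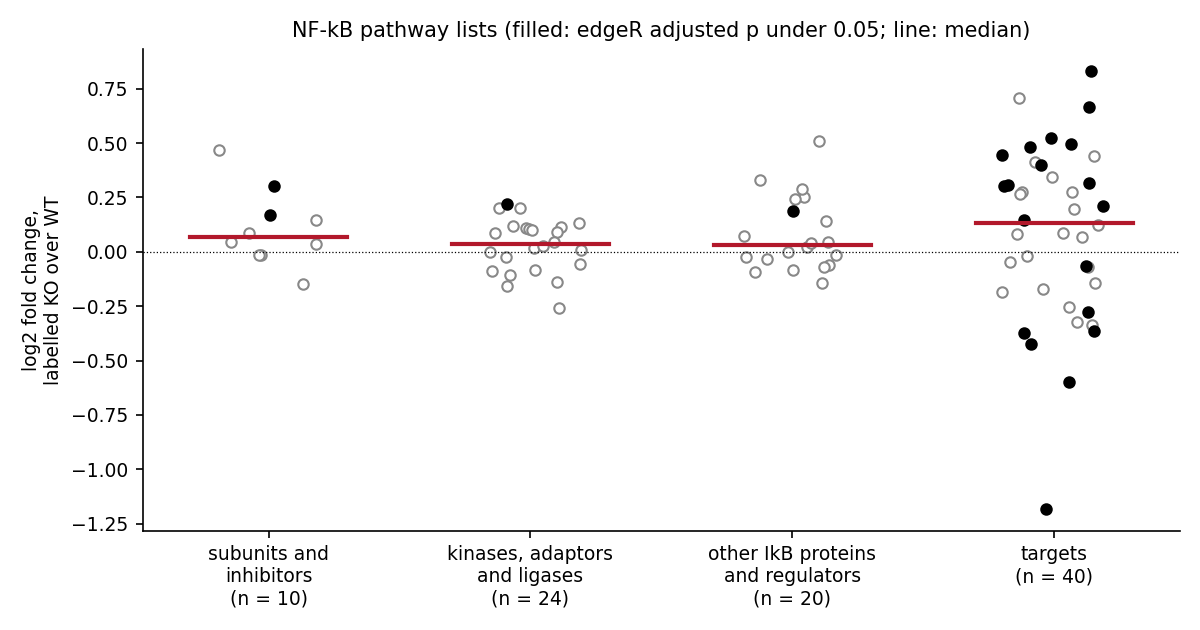
Log2 fold change, labelled KO over WT (vertical axis), of every tested gene of the NF-kB subunits and inhibitors and of 3 pathway lists, with the median of each as a line. Called genes (filled) number 2 of 10, 1 of 24, 1 of 20 and 19 of 40, and among the targets 12 lie above 0 and 7 below.

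The transcripts of the 10 genes were also read for sequence features, using the longest protein-coding transcript of each in GENCODE M21. GGACT, the commonest core of the m6A consensus, was counted on the transcript strand. It occurred 2.49 times per kilobase in Tnfaip3, 2.21 in Rela, 2.08 in Nfkb2 and 1.901 in Nfkbia, and 0.402 in Rel, 0.485 in Nfkbib, 0.486 in Nfkbiz and 0.729 in Nfkb1. The median over the 10 genes was 1.09 per kilobase and that over 12545 tested genes 1.048. By GGACT, the called genes Nfkb1 and Nfkbiz lay below the median of all genes (30.6% and 17% of genes were at or below them). Tnfaip3 lay near the top (94.9%). The full consensus DRACH (D for A, G or T, R for A or G, H for A, C or T) ranked some genes otherwise. By DRACH per kilobase, 56.1% of genes were at or below Nfkb1, 27.2% at or below Nfkbiz and 81.9% at or below Tnfaip3. Nfkb2 moved from 89.9% by GGACT to 27.0% by DRACH, Nfkbia from 86.4% to 22.7% and Nfkbie from 35.9% to 84.3%. ATTTA, the pentamer of AU-rich elements, which mark short-lived messenger RNAs, occurred 12 times in the 3' UTR of Rel, 5 times in Tnfaip3, 4 times each in Nfkb1 and Nfkbiz, 2 times in Nfkbia, 1 time in Nfkb2 and not at all in Rela, Relb, Nfkbib and Nfkbie. The median count was 1.5 over the 10 genes and 2 over the 11940 genes with a 3' UTR of at least 100 bases. Per kilobase of 3' UTR, 6 of the 10 lay above the median of those 11940 genes, 1.35. The Rel 3' UTR is long, at 5418 bases, and its 2.21 per kilobase was at or above 68.3% of the 11940 genes. The Nfkb1 3' UTR, with 5.71 per kilobase, was at or above 95.6% of them. These are counts of letters and not of methylated or destabilised sites.

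The genes whose log2 CPM tracked Nfkb1 most closely over the 6 libraries were Aftph, Mtus1 and Gbp11 (Pearson's r 0.999, 0.998 and 0.997). Mtus1 averaged 12.2 FPKM in labelled KO and 8.41 FPKM in WT, Gbp11 7.22 FPKM in labelled KO and 3.70 FPKM in WT, and Aftph 20.2 FPKM in labelled KO and 17.5 FPKM in WT. The 6 libraries fall in 2 groups, and 957 of 9121 candidate genes had r above 0.9.

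**Figure D5:**
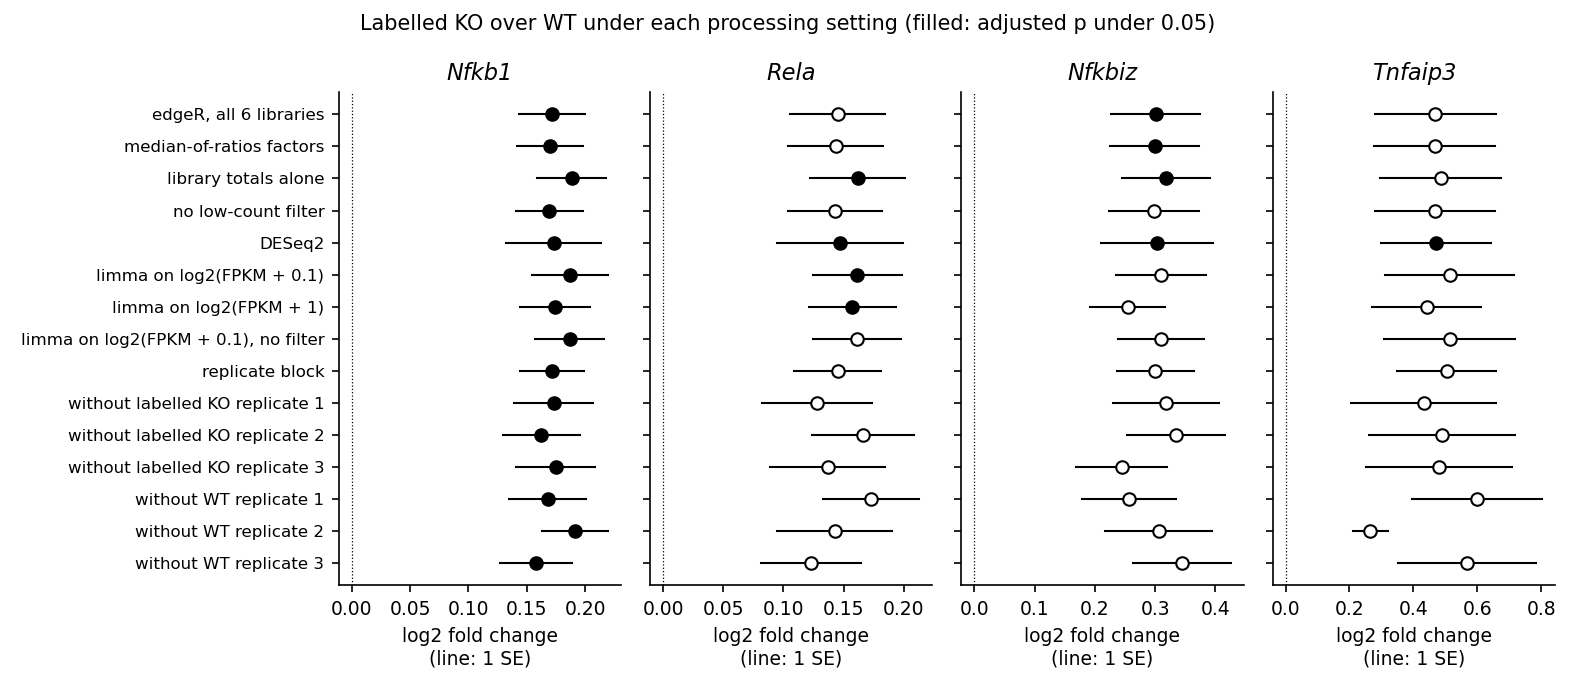
Log2 fold change, labelled KO over WT (horizontal axes), of Nfkb1, Rela, Nfkbiz and Tnfaip3 under each processing setting (rows), with 1 SE. Nfkb1 passed in every row and Nfkbiz in 4 of 15, all points lie above 0, and Tnfaip3 drops to 0.27 when WT replicate 2 is left out.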

How the data were processed

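The libraries were made from fragmented poly(A) RNA, per the labels' protocols. The submitters' processing notes name StringTie 1.3.4d, HISAT2 2.0.4, cutadapt 1.9 and mm10. Settings, annotation and strand were not given in the sources used. The authors deposited FPKM per gene and library, with 0.0001 at a count of 0, and estimated counts as whole numbers, per the file headers. Library totals were 67280390 to 77997742.

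The estimated counts were tested in R 4.3.3 with edgeR 4.0.16 (TMM scaling, filterByExpr with a minimum count of 10, glmQLFit, glmQLFTest), labelled KO over WT, with Benjamini-Hochberg adjustment over 16256 genes and a threshold of 0.05. Fits were tested on simulated data. Alternatives used DESeq2 1.42.0, limma 3.58.1 on log2(FPKM + pseudocount), other scalings and filters, a replicate block and each library left out. By rule the genes named are the 10 members, Mettl3 and up to 4 called genes of each pathway list by adjusted p. The rule also names the 3 genes most like the member with the smallest adjusted p. Outside it stand the macrophage markers, genes that share exonic bases, single genes of the other marker lists, Il6 and Csf3. Members and lists were chosen with earlier results of these data known. Single genes of the other marker lists, Il6, Csf3 and others named in the closing section were chosen after their values were seen. Coordinates are those of the deposited table; those of Nfkb1, Nfkbib and Tnfaip3 differ in GENCODE M21, which gave transcripts and exon overlaps.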

Additional observations from a re-analysis of the deposited data

How the results depend on the processing

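Directions of 9 of the 10 genes held under all 14 alternatives, the exception being Nfkbie (0.0033 on library totals alone; -0.073 to 0.066 with any 1 library left out, above 0 without labelled KO replicate 3, 0.07, and WT replicate 3, 0.03). For Nfkbia the sign held in name only, at -4.4e-06 on library totals alone. Mettl3 ranged from -0.066 to 0.11 with any 1 library left out, below 0 without labelled KO replicate 3 (-0.06) and WT replicate 3 (-0.07). The count of the 10 genes called, 2 in edgeR, was 4 in DESeq2 and 1 with no low-count filter, with limma on log2(FPKM + 0.1) without a filter and with the replicate block, and 1 with any 1 library left out. Over all genes the count was 1012 with the replicate block, against 2060, and 1244 to 1339 with any 1 library left out. In the list of kinases, adaptors and ligases the count of called genes, 1 in edgeR, was 2 in DESeq2, 0 with the replicate block and 0 to 1 with any 1 library left out. Among the other IkB proteins and regulators it was 1 in edgeR, 3 in DESeq2, 0 with no low-count filter, 0 with the replicate block and 0 to 1 with any 1 library left out. The targets called numbered 15 with the replicate block and 16 to 20 with any 1 library left out, against 19. Fits without a library hold fewer samples, and the cause of the other differences was not tested. The main fit did not take the replicate numbers as pairs because the labels state no pairing. With values centred within each group, same-numbered libraries did not deviate together (correlations of -0.021, -0.014 and 0.015). By these correlations, 2 of 6 libraries were closest to their own number. The replicate block ended the calls of Nfkbiz (adjusted p = 0.0767), Traf6 (0.0602) and Zc3h12a (0.102). The median log2 fold change over all genes moved by 0.021 across settings. Since counts were estimated, no counting interval is given.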

Other observations

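Among the NF-kB targets, the 7 genes called lower in labelled KO include 4 CC chemokine genes, named here after their values were seen. Ccl4 averaged 23.0 FPKM in labelled KO and 34.4 FPKM in WT (log2 fold change -0.60, edgeR adjusted p = 0.00593). Ccl2 averaged 17.1 FPKM in labelled KO and 22.7 FPKM in WT (-0.42, edgeR adjusted p = 0.00242), and Ccl3 32.8 FPKM in labelled KO and 42.0 FPKM in WT (-0.37, edgeR adjusted p = 0.0094). Ccl5, at 1722 FPKM in labelled KO and 1783 FPKM in WT, was lower by little (-0.07, edgeR adjusted p = 0.0249). The other genes called lower besides Cd83 were Bcl2l1, an anti-apoptotic gene (-0.36), and Lcn2, which encodes lipocalin 2 (-0.28). Il1b, a cytokine gene, was called higher at 24.1 FPKM in labelled KO and 13.4 FPKM in WT (log2 fold change 0.83, edgeR adjusted p = 0.000636), while Tnf, at 11.4 FPKM in labelled KO and 9.27 FPKM in WT, did not pass (0.28, edgeR adjusted p = 0.117).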
